A study of Rattus norvegicus with 6 samples.

Results

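The interferon-stimulated genes measured here are 33 rat genes that cells switch on when interferon reaches them, chosen by name from the antiviral, sensing, transcription factor, GTPase and antigen processing arms of the response. All 33 were present on the array, with 39 probes in all, among 15443 named genes. Of these members, 31 were bright enough to be tested, as were 10859 genes in all, and Ifit1 and Irf8 were not. Livers were compared between 2 groups of rats (Rattus norvegicus), 3 normal rats and 3 rats in which fibrosis had been brought on by tying off the bile duct (bile duct ligation), with 1 array of total RNA from tissue blocks per rat. Strain, sex, age, the time between ligation and sampling, and whether the normal rats had a sham operation are not given in the sources used here. The comparison asks which genes differ in expression between fibrotic and normal liver. Because whole tissue blocks were measured, fewer cells of a type and less RNA per cell cannot be told apart.

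Interferons are cytokines that are released when cells sense viral or misplaced nucleic acid. Type I interferons act through the IFNAR receptor and the kinases JAK1 and TYK2, which activate STAT proteins. STAT2 joins IRF9 in a complex that binds interferon-stimulated response elements (ISRE) in the promoters of antiviral genes. Interferon-gamma, from T and NK cells, acts on gamma-activated sites (GAS) in the promoters of genes such as Irf1. In liver, hepatocytes, Kupffer cells and other resident cells can all respond, and the gene products degrade viral RNA, block its translation, trim peptides for display on class I molecules and feed back on the signal.

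The 75th percentile of the processed signal ran from 3755 to 4386 on the normal arrays and from 4840 to 6401 on the fibrosis arrays. Between 67.2% and 70.0% of spots were well above background on the normal arrays and between 68.8% and 78.0% on the fibrosis arrays. Levels below are log2 signals relative to each array's own 75th percentile, so 0 means a signal equal to that percentile, and they compare livers for 1 probe, not genes with each other. Fibrotic liver 2, which differed from the other fibrotic livers in many members, lay inside the range of the other 5 arrays in its 75th percentile (4840), its share of spots above background (71.7%) and its share of spots marked as non-uniform (28.7%). The scanner software marked between 18.3% and 34.9% of spots on an array as non-uniform, and 65 of the 186 values of tested members rest on such spots alone. All arrays lay on 1 slide, with the normal livers and fibrotic liver 1 in its first row and fibrotic livers 2 and 3 in the other row.

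Many of the members carry interferon response motifs in their promoters, and a few are shown here from genes that were called (Gbp2 and Gbp5), from genes with other orders of the livers and from Irf1, as an example of the GAS motif. RefSeq promoter windows on GRCr8 were found for 27 of the 33 members (not for Mx2, Ifit1, Ifit2, Isg15, Usp18 and Dhx58). In the 250 bases before the start site, the ISRE core GAAANNGAAA, read on both strands (TTTCNNTTTC on the other), was found in 16 of 27 members (59.3%), against 3.29% of 27457 promoters in the whole table and 2.71% of the 8902 tested genes with a promoter. The GAS core TTCNNNGAA, which reads the same on both strands, was found in 9 of 27 members (33.3%), against 7.52% and 6.18%. Both motifs were found in 4 members and at least 1 of them in 21. Neither was found in the windows of Oasl and Psmb9, which were also called. A match is a run of letters and not a measured binding site. The 80-base windows below read 5′ to 3′ along the gene's strand, with the motif in capitals.
Ifit3: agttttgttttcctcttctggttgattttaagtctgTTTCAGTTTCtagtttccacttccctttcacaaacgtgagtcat
Irf7: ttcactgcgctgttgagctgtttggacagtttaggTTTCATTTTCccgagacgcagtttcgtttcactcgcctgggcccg
Tap1: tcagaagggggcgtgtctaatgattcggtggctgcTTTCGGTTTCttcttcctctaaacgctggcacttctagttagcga
Gbp2: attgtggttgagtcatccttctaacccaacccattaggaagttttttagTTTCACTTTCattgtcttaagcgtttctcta
Gbp5: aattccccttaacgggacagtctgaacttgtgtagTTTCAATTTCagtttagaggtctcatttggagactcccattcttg
Tap2: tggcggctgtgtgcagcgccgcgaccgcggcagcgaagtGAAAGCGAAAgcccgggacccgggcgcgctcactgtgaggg
Psmb10: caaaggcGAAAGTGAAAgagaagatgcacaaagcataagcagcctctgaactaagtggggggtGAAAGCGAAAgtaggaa
Bst2: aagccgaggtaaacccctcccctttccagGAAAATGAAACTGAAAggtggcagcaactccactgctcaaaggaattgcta
Irf1 (GAS window): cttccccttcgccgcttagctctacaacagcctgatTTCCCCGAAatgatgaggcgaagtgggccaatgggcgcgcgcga
The window of Ifit3 lies at chr1:241527246-241527325 on the plus strand, with its motif starting 44 bases before the start. That of Irf7 lies at chr1:205800048-205800127 on the minus strand, with the motif starting 69 bases before it. That of Tap1 lies at chr20:4668620-4668699 on the minus strand, that of Gbp2 at chr2:234005647-234005726 on the plus strand and that of Gbp5 at chr2:233910908-233910987 on the plus strand. That of Tap2 lies at chr20:4652297-4652376 on the minus strand, that of Psmb10, which holds the ISRE core at 2 places, at chr19:50743293-50743372 on the minus strand, and that of Bst2, with overlapping copies, at chr16:18255048-18255127 on the minus strand. The GAS window of Irf1 lies at chr10:38417757-38417836 on the plus strand.

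Few of the interferon-stimulated genes passed the test in fibrosis. By limma, with p-values adjusted by Benjamini-Hochberg across the 10859 genes, 4 of 31 members (12.9%) were higher, Oasl, Gbp2, Gbp5 and Psmb9, where 15.7% of all tested genes were called higher. None was called lower, where 9.1% of all genes were. At an unadjusted p under 0.05, 9 members were higher and 1, Bst2, was lower. Shares of all genes at an unadjusted p under 0.05 were not counted, so these counts have no background to be read against. The median difference of the members was 0.58 on the log2 scale, against -0.06 over all genes, and 25 of 31 had a difference above 0. The members varied more among the fibrotic livers than among the normal ones, in 28 of 31 by SD (90.3%, against 74.8% of all genes). The median SD over 3 livers was 0.285 for the members in normal liver and 0.710 in fibrosis, against 0.225 and 0.408 over all genes.

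The interferon-inducible GTPases held the clearest rise. Gbp5, a guanylate-binding protein that promotes inflammasome assembly, stood at -2.59, -2.64 and -3.13 in normal livers 1 to 3 and at 0.10, -0.85 and -0.46 in fibrotic livers 1 to 3. Every fibrotic liver was above every normal one, the lowest fibrotic liver by 3.34-fold over the highest normal liver. The difference was 2.38 ± 0.31 (SE, n = 3 and 3; limma adjusted p = 0.000988), a 5.21-fold rise. A further probe of Gbp5 was not well above background in any normal liver and was at least 8.75-fold higher in fibrosis, and since it was bright in the fibrotic group alone its test adds no support. Gbp5 was called in all 23 alternative settings that were run.

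Gbp2, a guanylate-binding protein that attacks the membranes around intracellular microbes, stood at 0.07, -0.05 and -0.29 in the normal livers and at 1.59, 0.52 and 1.91 in the fibrotic livers. The groups did not overlap, and fibrotic liver 2 was the lowest of its group, with its value resting on marked spots alone. The difference was 1.43 ± 0.37 (limma adjusted p = 0.0235). It was no longer called with scaling to the array median, with slide row as a term, at a threshold of 0.01, or without any 1 of the normal livers or fibrotic liver 1. The GTPases of the immunity-related family differed less. Ifi47 ran from -3.12 to -2.25 in normal liver and stood at -1.32, -2.84 and -2.41 in fibrotic livers 1 to 3 (0.58 ± 0.42, limma adjusted p = 0.361), with only fibrotic liver 1 above all normal livers. Igtp, of the same family, had a difference of -0.36 ± 0.32 (limma adjusted p = 0.468), with all 6 values resting on marked spots. A further Igtp probe put the fibrotic livers in another order, at 0.07, 0.81 and -0.81 against 0.92, -0.22 and 0.56.

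Among the genes of class I antigen processing, the immunoproteasome subunit Psmb9 rose. It stood at 1.53, 1.26 and 1.30 in the normal livers and at 2.28, 2.09 and 2.40 in the fibrotic livers. The groups did not overlap and the fibrotic livers lay close together. The difference was 0.89 ± 0.23 (limma adjusted p = 0.0220), a 1.86-fold rise. The call was lost with the array median, with slide row as a term, at a threshold of 0.01, under a 2-fold minimum, and without normal liver 2, normal liver 3 or fibrotic liver 1. The other catalytic subunits of the immunoproteasome did not follow it. Psmb8 had a difference of -0.29 ± 0.28 (limma adjusted p = 0.495, all values from marked spots). Psmb10 stood at 1.38, 2.48 and 1.31 in fibrotic livers 1 to 3 against 1.52 to 1.72 in normal liver (limma adjusted p = 0.836). Here liver 2 was the highest, but its value rests on marked spots alone.

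Tap1 and Tap2 form the transporter that carries peptides into the endoplasmic reticulum. Tap2 stood at -0.27, -0.27 and -0.29 in normal liver and at 0.73, 0.11 and 1.29 in fibrotic livers 1 to 3. All fibrotic livers lay above all normal ones, and the difference of 0.99 ± 0.32 fell just short of the threshold (limma adjusted p = 0.0532). It was called in 6 of the alternatives, among them the setting that kept all marked spots (limma adjusted p = 0.0393). Tap1 stood at -2.38, -3.02 and -2.63 in normal liver and at -1.62, -2.70 and -0.69 in the fibrotic livers. Fibrotic liver 2 lay within the normal range and livers 1 and 3 above it, with a difference of 1.01 ± 0.47 (limma adjusted p = 0.159). The Tap1 value of liver 3 rests on marked spots alone.

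Of the 10 tested antiviral effectors, 1 was called. Oasl, an OAS-like protein, was not well above background in any normal liver and was above it in all fibrotic livers, at levels of -2.16, -5.50 and -3.12 in livers 1 to 3. It was at least 7.04-fold higher in fibrosis (limma adjusted p = 0.0312). Oasl was bright enough for the test only through the fibrotic group, so it had to differ to be tested. Where a probe had to be above background on all 6 arrays, Oasl was not tested and 3 of 30 members were called. The rise was uneven, with signals of 1430, 107 and 589 in fibrotic livers 1 to 3 against 28.5 to 63.0 in normal liver. Its call was lost with quantile normalization, cyclic loess, normexp background correction, a threshold of 0.01 and without any 1 array other than that of fibrotic liver 2. Probe sequences were not used here, so cross-hybridisation within the OAS family could not be examined.

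In 5 of the 10 tested antiviral genes (Ifit3, Mx1, Cmpk2, Ifit2 and Oas1a), fibrotic livers 1 and 3 were above all normal livers and fibrotic liver 2 was not. Ifit3, which binds viral RNA together with its relatives, stood at -2.28, -3.08 and -2.72 in normal liver and at 0.75, -3.05 and 0.43 in fibrotic livers 1 to 3. Fibrotic livers 1 and 3 were 10.9-fold and 8.74-fold above the normal mean, while liver 2 was below it. The Ifit3 value of liver 3 rests on marked spots alone. The difference of the group means was 2.07 ± 0.89 and was not called (limma adjusted p = 0.128). Mx1, a dynamin-like GTPase that traps viral nucleocapsids, stood at -0.26, -0.26 and -0.02 in normal liver and at 2.29, -0.27 and 1.63 in fibrosis. Its level in fibrotic liver 2 was the lowest of all 6 livers, by a narrow margin, and its difference was 1.39 ± 0.58 (limma adjusted p = 0.116). Cmpk2, a mitochondrial nucleotide kinase, stood at -0.79, -1.41 and -1.43 in normal liver and at 0.83, -0.99 and 0.50 in fibrosis (1.33 ± 0.47, limma adjusted p = 0.0724). For Cmpk2, as for Ifit3, fibrotic liver 2 lay inside the normal range and the value of liver 3 rests on marked spots alone. Rsad2 (viperin, which makes a chain-terminating nucleotide), the neighbour of Cmpk2 in many genomes, stood at 1.91, 0.04 and 1.15 in the fibrotic livers and from 0.37 to 1.33 in normal liver, with only liver 1 above the normal range (limma adjusted p = 0.684).

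The remaining antiviral members varied in several ways. Ifit2 stood at 1.03, -0.92 and 0.08 in fibrotic livers 1 to 3 and from -0.81 to -0.49 in normal liver, with every value from marked spots (limma adjusted p = 0.274). Ifit1, too dim to be tested, had signals of 855, 19.4 and 150 in fibrotic livers 1 to 3 against 25.0 to 67.8 in normal liver. Both had liver 1 highest and liver 2 lowest. Oas1a, which makes the oligoadenylates that activate RNase L, stood at 0.30, -2.07 and 0.89 in the fibrotic livers and from -1.55 to -0.37 in normal liver, so that liver 2 lay below and livers 1 and 3 above the normal range (0.63 ± 0.70, limma adjusted p = 0.556). Eif2ak2, the kinase PKR that halts translation, had a difference of 0.04 ± 0.34 (limma adjusted p = 0.945). A further probe of Eif2ak2 had livers 1 and 3 above and liver 2 below the normal range, with livers 1 to 3 at -0.39, -2.13 and -0.44. Mx2 stood between 3.31 and 3.56 in normal liver and between 3.10 and 3.32 in fibrosis (limma adjusted p = 0.423), without the pattern of Mx1. Bst2 (tetherin, which holds budding virus at the cell surface) was the only member whose fibrotic livers were all below the normal ones, at 3.00, 3.10 and 2.73 against 3.65, 3.66 and 3.47. Its difference was -0.65 ± 0.23 (limma adjusted p = 0.0705). This depended on the scaling. With quantile normalization, cyclic loess and E1A scaling the difference was -0.26, -0.21 and -0.34 (limma adjusted p = 0.453, 0.563 and 0.566). In those settings fibrotic liver 1 was below all normal livers for 0 members.

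ISG15 and its protease followed the split among the fibrotic livers. Isg15, a ubiquitin-like modifier, stood at 1.82, 1.07 and 1.23 in normal liver and at 3.50, 0.88 and 3.32 in fibrotic livers 1 to 3. Liver 2 was below all normal livers and the others were 4.36-fold and 3.86-fold above the normal mean, with a difference of 1.19 ± 0.64 (limma adjusted p = 0.219). All 3 fibrotic values of Isg15 rest on marked spots alone. Usp18, which removes ISG15 and dampens IFNAR signalling, stood at 1.32, -2.31 and -0.48 in fibrotic livers 1 to 3 and from -1.49 to -0.86 in normal liver (limma adjusted p = 0.541). It was lowest in liver 2 as well, but a further Usp18 probe had liver 3 at -1.56, below all normal livers, and only liver 1 above them. Trim25, the ubiquitin ligase that activates RIG-I, stood at 1.34, 1.58 and 0.53 in the fibrotic livers, inside or below the normal range of 0.73 to 1.85 (limma adjusted p = 0.995). Its order differed from that of Isg15.

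Of the RNA sensors, Dhx58 (LGP2) stood at -2.61, -3.10 and -2.43 in normal liver and at -0.91, -2.58 and -0.33 in fibrotic livers 1 to 3. Livers 1 and 3 were above the normal range and liver 2 within it, with a difference of 1.44 ± 0.53 (limma adjusted p = 0.0847). The Dhx58 value of liver 3 rests on marked spots alone. Ifih1 (MDA5), which senses long double-stranded RNA, had a difference of 0.23 ± 0.26 (limma adjusted p = 0.547).

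Of the 4 tested transcription factors, 3 (Irf7, Irf9 and Stat2) had fibrotic livers 1 and 3 above all normal livers and liver 2 not. Irf7, which amplifies type I interferon production, stood at 0.26, -0.45 and 0.20 in normal liver and at 2.26, -0.26 and 2.45 in fibrotic livers 1 to 3. Livers 1 and 3 were 4.80-fold and 5.46-fold above the normal mean and liver 2 was within the normal range (1.48 ± 0.66, limma adjusted p = 0.142), with all values resting on marked spots. The subunits of the ISRE-binding complex had smaller differences. Irf9 stood at -0.61, -2.03 and -0.21 in the fibrotic livers and from -1.99 to -0.91 in normal liver (limma adjusted p = 0.563). Its value in liver 3 rests on marked spots alone. Stat2 had a difference of 0.07 ± 0.25 (limma adjusted p = 0.868). Irf1, a transcription factor induced by interferon-gamma, had a difference of 0.05 ± 0.30 (limma adjusted p = 0.926), and only fibrotic liver 1 was above its normal range. A further Irf1 probe had only fibrotic liver 2 above the normal range of -4.91 to -4.58. Irf8, a factor of myeloid cells, was too dim to be tested, with signals of 147, 26.7 and 102 in fibrotic livers 1 to 3 against 20.9 to 57.2 in normal liver.

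Among the other induced genes, Ifi44, a cytoplasmic antiviral protein, stood at 1.83, 0.78 and 2.13 in fibrotic livers 1 to 3 and from 1.13 to 1.36 in normal liver. Liver 2 was below the normal range and the others above it (limma adjusted p = 0.529). Parp14, a mono-ADP-ribosyltransferase, had livers 1 and 2 above the normal range at 2.04 and 1.80 and liver 3 within it (limma adjusted p = 0.440), while a further Parp14 probe had only liver 1 above. Ifi27, a small membrane protein of mitochondria and the nuclear envelope, lay between 3.13 and 3.45 in fibrosis and between 3.44 and 3.62 in normal liver (limma adjusted p = 0.422).

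**Figure D1:**
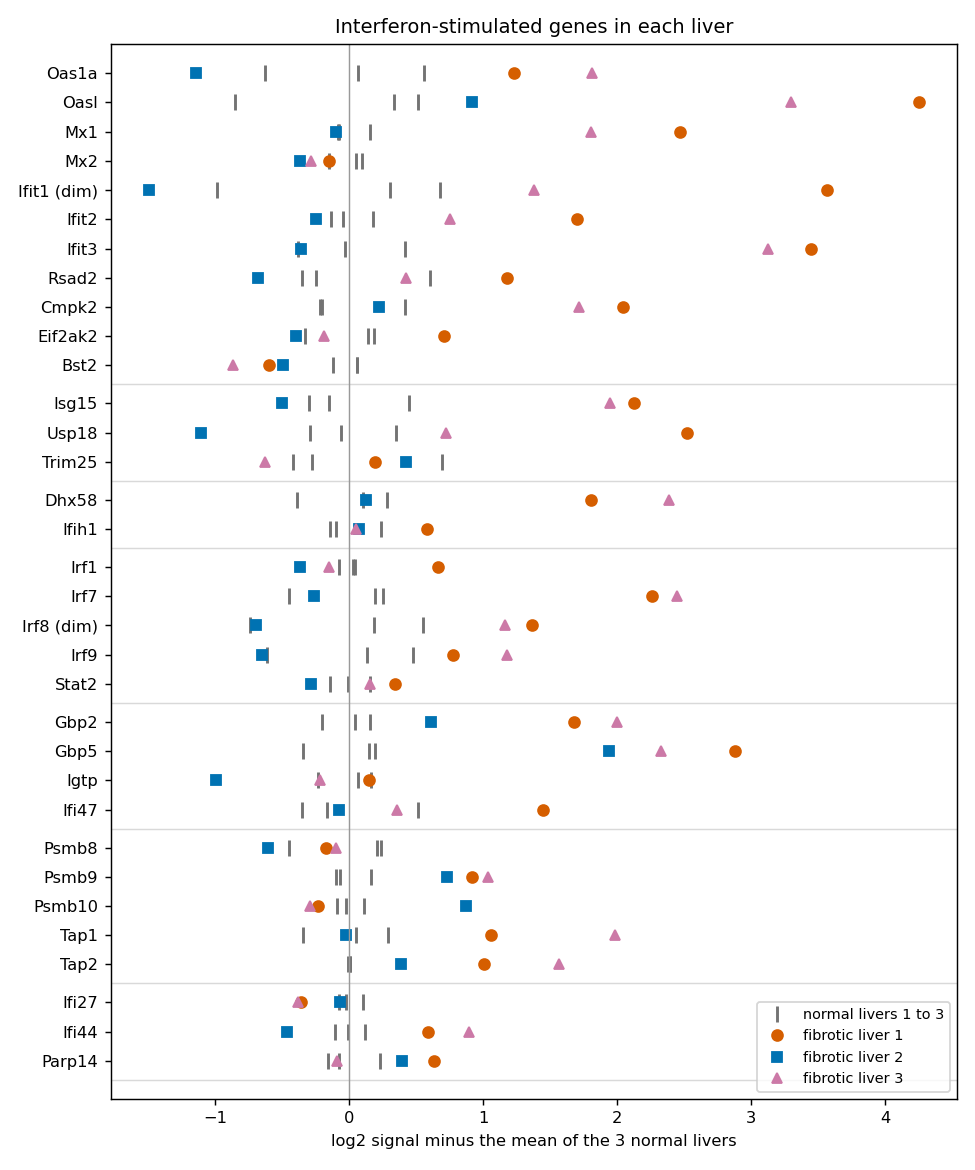
Each row is 1 of the 33 members, and the x axis gives its log2 signal in each liver minus the mean of the 3 normal livers (grey ticks: normal livers; circle, square and triangle: fibrotic livers 1, 2 and 3; dim: not tested). In 13 tested members, Ifit3 and Irf7 among them, the circle and triangle lie to the right of the ticks and the square does not. Gbp5, Gbp2, Psmb9, Oasl and Tap2 have all 3 symbols to the right.

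The livers can be set side by side over the 31 tested members. The median level relative to the normal mean was 1.01 in fibrotic liver 1, -0.24 in liver 2 and 0.75 in liver 3, where the medians over all genes were -0.10, -0.04 and -0.00. Fibrotic liver 1 was above all normal livers for 24 members (77.4%), liver 3 for 18 (58.1%) and liver 2 for 7 (22.6%), against 33.8%, 41.2% and 38.6% of all genes. Liver 2 was below all normal livers for 15 members (48.4%), against 41.0% of all genes. It was the lowest fibrotic liver for 25 of 31 members, against 32.9% of all genes, whereas liver 1 was lowest for 0 and liver 3 for 6. At least 2-fold above the normal mean were 16 members in liver 1, 14 in liver 3 and 1, Gbp5, in liver 2, against 16.4%, 19.7% and 18.2% of all genes.

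**Figure D2:**
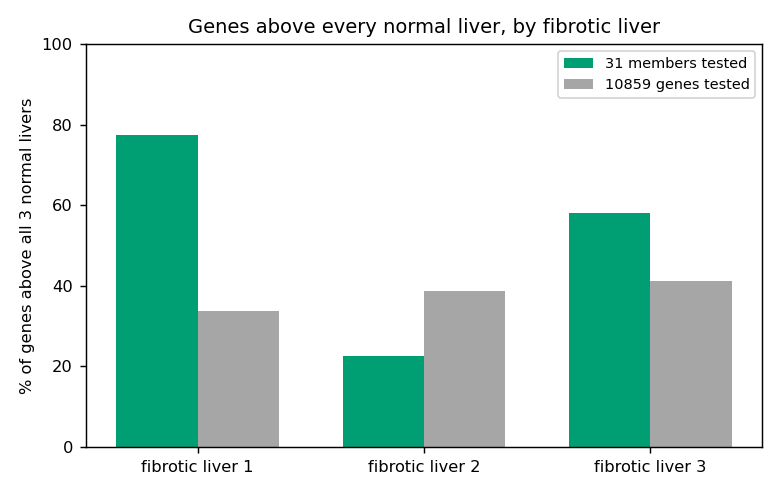
Bars give the share of genes (%, y axis) whose level in a fibrotic liver was above all 3 normal livers, for the 31 tested members (green) and for all tested genes (grey). The members' share was 77.4% in fibrotic liver 1, 22.6% in liver 2 and 58.1% in liver 3, while the share of all genes ran from 33.8% to 41.2%.

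The members with livers 1 and 3 above every normal liver and liver 2 not numbered 13 (41.9%), against 423 of all tested genes (3.90%). They were Oas1a, Mx1, Ifit2, Ifit3, Cmpk2, Isg15, Usp18 (by 1 of its 2 probes), Dhx58, Irf7, Irf9, Stat2, Tap1 and Ifi44. In 5 members (16.1%) all fibrotic livers lay above all normal livers, against 22% of all genes, and in 1 member all lay below, against 20.8% of all genes. Among the 10 tested members with no value resting on marked spots, liver 2 was the lowest fibrotic liver in 9. Of these 10, only 2 (Mx1 and Stat2) had livers 1 and 3 above every normal liver and liver 2 not. Each remaining member with that split rests on marked spots alone on at least 1 array. Liver 1 shared its slide row with the normal livers and liver 3 with liver 2, and the part of the slide row in the order was not tested. Under 7 settings of scaling, background correction and marked spots, liver 2 was the lowest fibrotic liver for 23 to 27 members. With scaling to E1A control spots, liver 1 was above all normal livers for 31 of 31 members but also for 74.3% of all genes. Members sharing a response element are not independent of each other, and the pattern describes 3 animals.

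**Figure D3:**
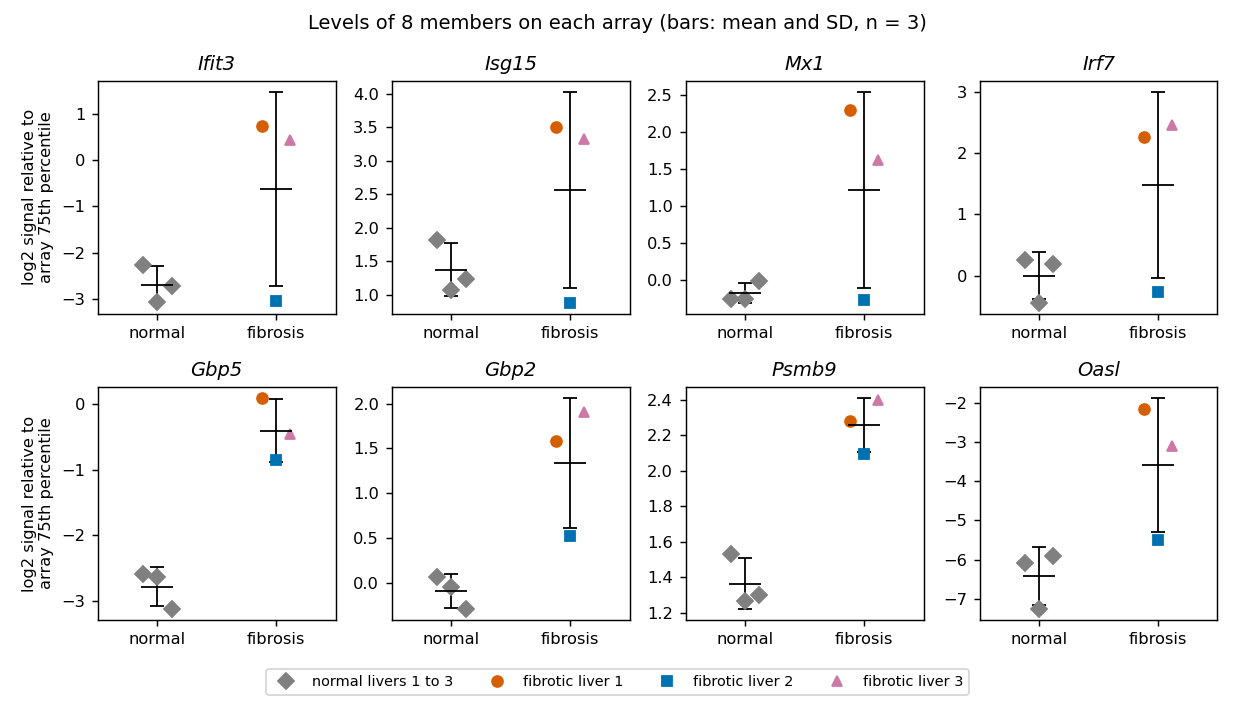
Levels of 8 members on each array (y axis: log2 signal relative to the array's 75th percentile; diamonds: normal livers; circle, square and triangle: fibrotic livers 1, 2 and 3; bars: mean and SD, n = 3). In the upper row the square of fibrotic liver 2 lies within the normal range (Ifit3, Irf7) or below it (Isg15, and Mx1 by a narrow margin). In the lower row (Gbp5, Gbp2, Psmb9, Oasl) it lies above the normal livers.

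The number of members called depended on which livers entered the fit. When each array was left out in turn, the number called higher ran from 1 to 15, and the 15 were reached without fibrotic liver 2, where Ifit1 and Irf8 were tested too. That is 45.5% of 33 members, against 15.1% of all tested genes called higher in that fit. The 4 members called with all arrays were among them, and the added ones were Oas1a, Mx1, Ifit1, Ifit2, Ifit3, Cmpk2, Isg15, Dhx58, Irf7, Tap1 and Tap2. Among them Ifit3 differed by 3.29 (limma adjusted p = 0.000790), Irf7 by 2.35 (limma adjusted p = 0.00263) and Isg15 by 2.04 (limma adjusted p = 0.00465). Ifit1 and Oasl were bright enough for this fit only through the fibrotic group, so their calls add no support. Without fibrotic liver 1 the count was 1, without fibrotic liver 3 it was 3, and without normal livers 1, 2 and 3 it was 2, 1 and 1. The shares of all genes called higher in these fits were 13.4%, 17.3%, 12.4%, 11.7% and 10.0%. These fits have only 2 fibrotic livers, and no label sets liver 2 apart, so its removal describes the data and defines no group.

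Weights estimated from the arrays gave a similar count. limma put the weights of fibrotic livers 1, 2 and 3 at 2.35, 0.431 and 0.243 and those of the normal livers between 0.930 and 2.13, so that this fit leans on fibrotic liver 1. It called 15 of 31 members higher (48.4%), against 20.6% of all genes, and Bst2 lower (limma adjusted p = 0.0284). Of the members called without fibrotic liver 2, 13 were called in it.

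**Figure D4:**
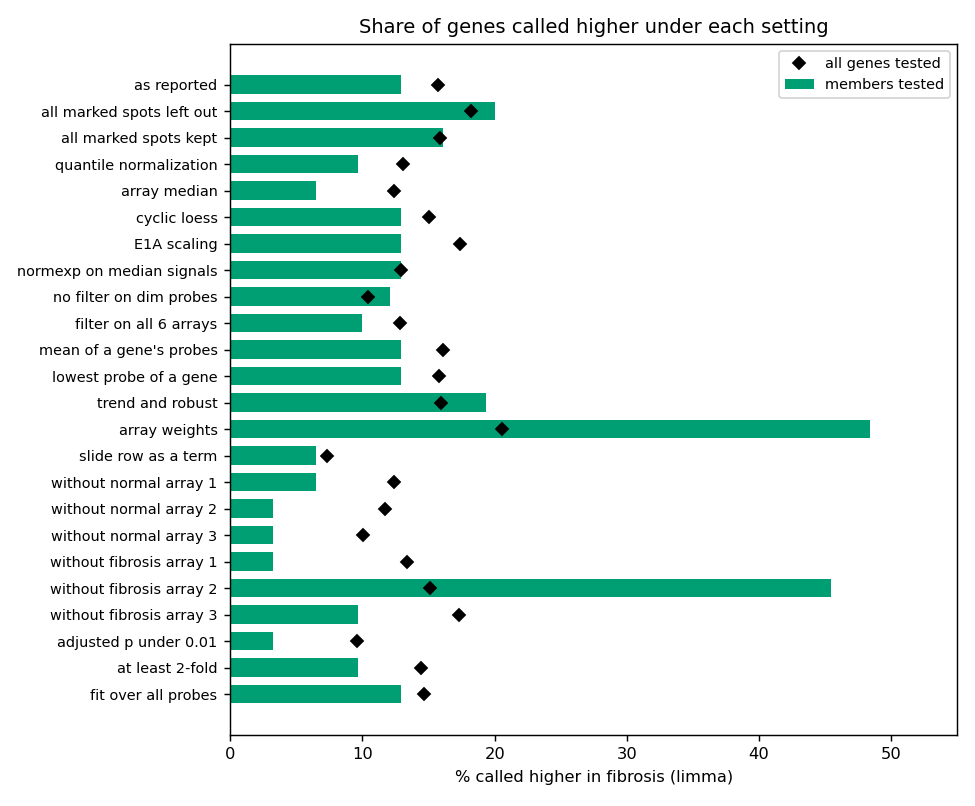
Share of genes called higher in fibrosis by limma (x axis, %) under each setting (y axis), for the members (bars) and for all tested genes (diamonds). The bars pass the diamonds by a wide margin with array weights (48.4% against 20.6%) and without fibrosis array 2 (45.5% against 15.1%), and lie near or below them in most other settings.

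Genes upstream of the members were called in 0 of 3 ligands, 2 of 8 receptor and JAK-STAT genes and 4 of 11 sensing genes, beside 15.7% of all genes called higher and 9.1% called lower. Among interferon ligands, Ifng, Ifna2, Ifna5, Ifnk, Il12a and Il12b were not above background in any liver. The 3 that were tested, Ifna4, Ifnb1 and Il18, gave no call, with the smallest p for Il18, an inducer of interferon-gamma (0.85 ± 0.38, limma adjusted p = 0.145), then Ifnb1 (-0.41 ± 0.42, limma adjusted p = 0.520). Of 8 tested receptor and JAK-STAT genes, 2 were higher, the interferon-gamma receptor chain Ifngr1 (0.89 ± 0.23, limma adjusted p = 0.0259) and Stat3 (0.84 ± 0.25, limma adjusted p = 0.0414). Ifngr1 stood at 2.18, 2.55 and 2.69 in fibrotic livers 1 to 3 and from 1.56 to 1.62 in normal liver, so that liver 2 was not the lowest.

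Of 11 tested genes of nucleic acid sensing, 3 rose and 1 fell. Sting1, the adaptor of cytosolic DNA sensing, rose by 1.41 ± 0.29 (limma adjusted p = 0.00911) and was highest in fibrotic liver 2, at -0.54 against -1.07 and -1.41 in livers 1 and 3. Irf5 (1.29 ± 0.25, limma adjusted p = 0.00722) and the kinase Ikbke (1.36 ± 0.31, limma adjusted p = 0.0153) rose, and Mavs, the mitochondrial adaptor of RNA sensing, fell (-0.85 ± 0.24, limma adjusted p = 0.0357). None of 8 negative regulators was called, of which 1 had an unadjusted p under 0.05, and the smallest p values were those of Socs1 (0.65 ± 0.27, limma adjusted p = 0.119) and Nlrx1 (-0.47 ± 0.25, limma adjusted p = 0.208). Liver 2 was the lowest fibrotic liver for 3 of 8 receptor and JAK-STAT genes and for 4 of 11 sensing genes. It was lowest for 18 of 27 interferon-stimulated genes outside the members (66.7%) and for 8 of 11 interferon-gamma and class I partners (72.7%), beside 25 of 31 members.

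Further interferon-stimulated genes outside the 33 members were called higher in 7 of 27 cases and lower in 1, beside 15.7% and 9.1% of all genes. Oasl2, an OAS-like protein, rose by 2.63 ± 0.50 (limma adjusted p = 0.00639), at 1.29, -0.76 and 0.90 in fibrotic livers 1 to 3 against -2.42 to -1.88 in normal liver. Isg20, an exonuclease, rose by 1.89 ± 0.39 (limma adjusted p = 0.00964) and Sp100, a nuclear body protein, by 1.62 ± 0.38 (limma adjusted p = 0.0156). Liver 2 was the lowest fibrotic liver for Oasl2 and Isg20 but not for Sp100. Tor3a fell by 1.71 (SE 0.44, limma adjusted p = 0.0238). Of 11 interferon-gamma and class I partners, Ciita, the master regulator of class II genes, rose (1.22 ± 0.27, limma adjusted p = 0.0123) and the chemokine Cxcl11 fell (-1.42 ± 0.37, limma adjusted p = 0.0261). The split among the livers recurred in Cxcl10, another chemokine of the response, at 0.62, -1.84 and 0.42 in fibrotic livers 1 to 3 against -1.18 to -0.16 in normal liver (limma adjusted p = 0.562).

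Markers of cells a liver block can hold were read beside these values. Neutrophil markers followed the members' order of livers. Their summed signal, in units of the array's 75th percentile, was 0.168 to 0.311 in normal liver and 2.71, 0.710 and 2.50 in fibrotic livers 1 to 3. Both tested genes of that list, S100a8 (2.97 ± 0.48, limma adjusted p = 0.00298) and S100a9 (2.94 ± 0.61), rose, while Elane was not above background in any liver and Ngp only in fibrotic liver 1. Macrophage and Kupffer cell markers summed to 16.5 to 20.1 in normal liver and to 25.2, 21.8 and 24.4 in fibrotic livers 1 to 3, with 2 of 10 called higher (Itgam and Cd163) and 1 lower (Cd14). Their part in the members' order was not tested.

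By summed signal, the marker lists that follow did not share that order. Cholangiocyte markers, 6 of 6 higher, summed to 7.56, 8.64 and 7.01 in fibrotic livers 1 to 3 against 0.470 to 0.654 in normal liver. Stellate cell and myofibroblast markers, 4 of 6 higher, summed to 25.1, 24.3 and 12.1 against 5.24 to 8.76. Hepatocyte markers, of which 1 of 8 was called lower (Cyp2c11), summed to 60.0, 69.6 and 60.7 against 102 to 119, so that the tissue was liver by its defining genes in all 6 arrays. By mean log2 level, which the brightest genes dominate less, hepatocyte markers did share the members' order. That mean was 1.07, 0.60 and 0.92 in fibrotic livers 1 to 3 against 2.09 to 2.61 in normal liver. Plasmacytoid dendritic cell markers, with 1 of 4 higher (Tcf4) and Irf4 not above background in any liver, summed to 2.67, 3.50 and 4.09 against 1.62 to 2.00. T and NK cell markers, with 1 of 8 higher (Cd3g) and Klrb1 not above background, summed to 2.12, 2.69 and 2.94 against 1.81 to 2.91. Endothelial markers, with 0 of 3 called, summed to 3.58, 4.84 and 2.47 against 3.29 to 4.38. Fibrotic liver 2 was thus not the lowest in cholangiocyte or stellate cell markers.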

How the data were processed

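Total RNA from 6 rat livers was labelled with Cy3 and hybridised to Agilent 1-colour arrays, per the labels' protocols. What was deposited is linear spot intensity as written by Agilent Feature Extraction 11.5.1.1, after background subtraction, removal of spatial trends and replacement of low values by small positive ones, per the file headers. The headers record no step that puts arrays on a common scale.

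Accessions of 30367 probes (58717 spots per array without controls) were matched to RefSeq genes of GRCr8, which named 18355 probes. The log2 of each processed signal was taken, minus the log2 75th percentile of its array. Spots marked as non-uniform or population outliers were left out where the probe had an unmarked spot on that array and kept where it had none, because dropping all of them removes many bright genes; 0 spots were saturated. Values of a probe's spots were averaged. Testing required at least 0.5 of a probe's spots to be well above background on every array of 1 or both groups, and the probe with the highest mean stood for its gene. limma 3.58.1 (lmFit and eBayes, R 4.3.3) compared fibrosis with normal over all genes, with Benjamini-Hochberg adjustment and calls at an adjusted p under 0.05, after it had been tested on simulated data. Where a probe was above background on no array of a group, the fold is a lower bound: the brighter group's mean against the mean, in the dimmer group, of whichever is higher on an array, the probe's level or the lowest signal well above background.

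The labels and design text give 3 rats per group. Replicate numbers follow record order and pair nothing. The members, the other lists and the tests were chosen with earlier results of these data known. All members are named. Of each other list up to 3 called genes with the largest increase and 3 with the largest decrease are named, or the 2 with the smallest p where none was called, and the defining markers of each cell type. Cxcl10 was chosen after their values were seen. Alternatives covered marked spots, scaling (quantile, array median, cyclic loess, E1A control spots), normexp background correction (offset 50, on median signals, since the files used here hold no mean signal), probe filters and summaries, eBayes settings, array weights, slide row, thresholds and leaving out each array. Motifs were searched in the 250 bases before each start site, with the first promoter entry of a symbol. With 3 arrays per group, precision is limited by the number of arrays.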

Additional observations from a re-analysis of the deposited data

How the results depend on the processing

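Of the 4 members called higher, Gbp5 was called under every alternative run. The number of members called higher was 2 with the array median, 15 with array weights, 2 with slide row as a term and 1 at an adjusted p under 0.01. In these settings 12.4%, 20.6%, 7.28% and 9.58% of all genes were called higher. Leaving out each array in turn gave 1 to 15 members. Called lower was 1, Bst2, when arrays were scaled to their median, with trend and robust eBayes settings and with array weights and 0 in all the other settings. Of 68 tested genes of the other interferon lists, 16 were called, beside 15.7% of all genes called higher and 9.1% lower. With all marked spots left out, 7 of the 36 still tested were called. In that setting 18.2% of all genes were called higher and 429 of 7433 lower. Slide row as a term gave 4 calls, where 7.28% of all genes were called higher and 149 of 10859 lower. When each array was left out the number ran from 6 to 19, where 10.0% to 17.3% of all genes were called higher. The slide row fit compares fibrotic liver 1 with the normal livers in effect, because the other fibrotic livers fill the other row. Over single members and alternatives, a call was gained 29 times and lost 23 times, and 0 called differences changed sign. Over all genes, 63.4% of calls were higher, against 37.0% for the array median and 88.7% for E1A scaling, and the median difference of all genes was -0.06, -0.38 and 0.24 in these settings, so signed differences are relative to them. Signal over background limits Oasl, Ifit1 and Irf8, whose levels in normal liver lie near background.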

Other observations

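Genes outside the interferon lists used here shared the order of the fibrotic livers. Whether genes outside these lists also respond to interferon was not examined. Ranked by how far fibrotic livers 1 and 3 both exceeded fibrotic liver 2 and every normal liver, the 30 leading genes held 7 members (Ifit3, Oasl, Irf7, Mx1, Dhx58, Isg15 and Cmpk2), 2 genes of the other interferon lists (Oasl2 and Isg20) and 21 genes of neither. In all, 44 genes had a margin of at least 1 on the log2 scale, of which 8 were members. The genes were picked for this pattern after seeing the values, so no test was made.

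Among the 21, Retnlg stood at -2.91, -5.54 and -3.34 in fibrotic livers 1 to 3 against -6.67 to -5.51 in normal liver, and Camp, an antimicrobial peptide, at -3.23, -5.39 and -3.79 against -6.34 to -5.38. S100a8 and S100a9 had margins of 1.61 and 1.84. Others were Ly6c at 0.80, -1.29 and 0.90 against -2.04 to -0.97, the NK cell receptor gene Klrk1 at -1.24, -4.29 and -1.50 against -3.87 to -3.42, and the monocyte chemokine gene Ccl12 at -2.02, -4.77 and -1.27 against -5.29 to -3.82. For Retnlg, Camp, Ly6c and Ccl12 fibrotic liver 2 lay within the normal range, and for Klrk1 below it. Ifgga2l2 stood at -1.15, -2.88 and -1.09 against -3.30 to -2.94, Ly6e at 0.92, -0.34 and 1.02 against -1.93 to -1.11, and Trafd1 at -2.71, -4.10 and -2.18 against -4.59 to -4.34, with fibrotic liver 2 above the normal range for all 3.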
